A study of Mus musculus with 6 samples.

Results

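The genes described here are 10 circadian clock genes, Bhlhe40, Bhlhe41, Per1, Per2, Per3, Cry1, Cry2, Nr1d1, Nr1d2 and Dbp. They were found as the rows of the count files whose gene name equals one of these symbols, and they are 10 of the 34745 genes in each file. All 10 had more than 500 counts summed over the 6 libraries and were among the 10046 genes tested, with at least 1522 counts for the lowest of them. RNA came from 889, a murine lung cancer cell line grown in culture, whose labels give the strain C57BL/6 and the tissue lung. The study asked which genes change when KIAA1522 is depleted in these cells. There were 3 libraries of cells with Cas9 and a control sgRNA (sg-con in the labels, named sgcontrol here). There were 3 libraries of cells with Cas9 and an sgRNA against kiaa1522 (sg-kiaa1522, named sgkiaa1522 here), whose treatment label is KIAA1522-downregulated. Both groups received Cas9 and a guide by lentivirus, but by the methods of the study the kiaa1522 guides were in lentiCRISPRv2 and the control was the lentiCRISPR-EGFP sgRNA1 plasmid, so the vectors differed as well as the guides. Whether the sequenced cells were a pool or 1 clone, and which of the study's guides they carried, is not given in the sources used here. No hour of harvest, serum step or other synchronisation of the cells before RNA extraction is given either.

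The circadian clock is a feedback loop of transcription. CLOCK and BMAL1, the product of Arntl, bind E-box sequences and activate the Per and Cry genes, and the PER and CRY proteins return to the nucleus and repress CLOCK and BMAL1. The Nr1d genes encode the REV-ERB nuclear receptors, which repress Arntl, and Bhlhe40 and Bhlhe41 encode DEC1 and DEC2, which compete at E-boxes. Dbp encodes a PAR bZIP factor that carries the rhythm to D-box genes. In bulk RNA from cultured cells that are not in phase, a level is a mean over all phases of the cycle.

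The targeted gene, kiaa1522 (listed as C77080), was counted 2214, 2404 and 2064 times in sgcontrol, and 2554, 3726 and 3667 times in the libraries labelled sgkiaa1522. Its log2 fold change (sgkiaa1522/sgcontrol) was 0.73 with a 95% interval of 0.59 to 0.86 (standard error, SE, 0.0569, and adjusted p = 9.1e-05 by the quasi-likelihood test of edgeR, which gives the adjusted p-values throughout). The mRNA of the targeted gene was thus higher, not lower, in the libraries whose label is downregulated, and every direction given here is a direction between labels. These counts measure RNA and not the KIAA1522 protein, so they do not show whether the protein was depleted. Total counts ranged from 16581000 to 18559660 in the sgcontrol libraries and from 12220001 to 18609376 in the sgkiaa1522 libraries, where 3 counts correspond to between 0.161 and 0.246 CPM (counts scaled to a common library size). Between libraries of 1 group, the chi-square of the counts divided by its degrees of freedom was 23.4 and 30.7 for the pairs with sgcontrol 1 and 12.3 to 12.8 for the other pairs. Results that rest on sgcontrol 1 are therefore also given without it. The files do not say whether libraries of 1 group came from separate cultures, so the p-values measure the spread between these libraries, which may be technical. Of 10 lung epithelial markers, 8 had more than 3 counts in every library, with a summed level of 3890 to 4600 CPM in sgcontrol and 3260 to 3510 CPM in sgkiaa1522, and Epcam was listed at 0 in all 6 libraries. The epithelial sum was nearly all Krt8, Krt18 and Krt19. Within it, Cdh1 fell from 56.2 to 20.5 CPM on average (log2 fold change -1.45, adjusted p = 5.1e-05), and Nkx2-1 ranged from 13.6 to 58.8 CPM in sgcontrol and from 9.45 to 39.3 CPM in sgkiaa1522. Of 6 immune markers, 2 had more than 3 counts in every library and Cd3e and Adgre1 were at 0. Their summed level was 2.25 to 6.00 CPM in sgcontrol and 11.0 to 13.8 CPM in sgkiaa1522, most of it in sgkiaa1522 from Cd68. Of 4 endothelial markers, 1 had more than 3 counts in every library, and their sum was 0.805 to 1.66 CPM and 0.938 to 1.23 CPM. Of 6 fibroblast markers, 2 had more than 3 counts in every library and Thy1 was at 0. The fibroblast sum was 423 to 440 CPM in sgcontrol and 145 to 163 CPM in sgkiaa1522, nearly all of it from Col1a2, while Col3a1, Dcn and Pdgfra were near 0. The part of these shifts in the clock results was not tested.

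Of the 10 clock genes, Bhlhe41, Cry1, Dbp, Per1 and Nr1d1 were higher in the libraries labelled sgkiaa1522 and Bhlhe40 was lower, at an adjusted p of at most 0.05. Per2, Per3, Cry2 and Nr1d2 did not pass. The 5 higher and 1 lower stand beside 26.3% of all 10046 tested genes called higher and 26.3% called lower by the same rule. Under the threshold in the methods of the study, which also asks that the log2 fold change reach 1 in either direction, 2 clock genes were called higher (Bhlhe41 and Cry1) and 0 lower, beside 2.74% higher and 4.34% lower over all tested genes. The study also states a rule for its volcano plot, an unadjusted p under 0.05 with a log2 fold change over 2 in size. By that rule Bhlhe41 was called higher and no clock gene lower, beside 0.637% higher and 0.468% lower over all tested genes. The 3 libraries of each group did not overlap for the same 6 genes that passed on the adjusted p, 5 higher and 1 lower, and over all tested genes 30.6% were higher and 31.1% lower without overlap. The median log2 fold change of the 10 was 0.20, and that of all tested genes was -0.0067. The 10 genes were chosen with earlier results of these data known. Their counts and median therefore describe these genes and are no independent result on the clock. Because RNA was taken from whole cultures, more transcript per cell and more cells with the transcript cannot be told apart.

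**Figure D1:**
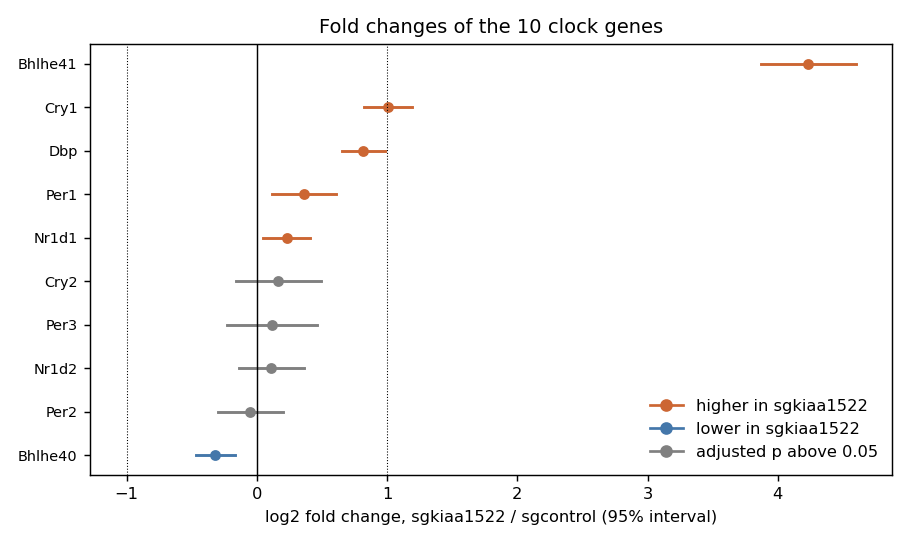
Log2 fold change (x axis, sgkiaa1522/sgcontrol) of each of the 10 clock genes, with points for the estimate of edgeR and bars for its 95% interval, n = 3 libraries a group, and dotted lines at a log2 fold change of 1 in either direction. Bhlhe41 stands at 4.23, Cry1 at 1.00 and Dbp at 0.81, the intervals of Per1 and Nr1d1 lie above 0, that of Bhlhe40 lies below 0, and those of Cry2, Per3, Nr1d2 and Per2 cross it.

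The plot of fold changes shows one gene far from the rest. Bhlhe41 was separated from the next gene, Cry1, by intervals that did not meet (3.87 to 4.60 against 0.82 to 1.19). The interval of Dbp, 0.65 to 0.98, met that of Cry1 and not that of Per1, 0.12 to 0.61.

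Bhlhe41 (ENSMUSG00000030256, GRCm38 chr6:145858243-145865558, minus strand) encodes DEC2, a basic helix-loop-helix repressor. Its counts were 39, 30 and 39 in sgcontrol and 448, 676 and 723 in sgkiaa1522. As TMM-normalized CPM these were 2.23, 1.61 and 2.33 against 36.7, 36.7 and 42.4. The gene was thus low but above the counting floor in every control library, and the groups were separated by a wide gap. Bhlhe41 passed the filter on summed counts only through the sgkiaa1522 libraries. At its control level in every library it would not have been tested. The shares over all tested genes hold only genes past this filter. With edgeR's expression filter or a filter of at least 1 count, the log2 fold change of Bhlhe41 was 4.24. Its level rose 18.8-fold (95% interval 14.6 to 24.2), a log2 fold change of 4.23 (SE 0.156, adjusted p = 8.4e-06 by edgeR), and it remained between 4.08 and 4.33 with each library left out in turn. The annotation places Gm43909 on the opposite strand over 1280 bases, 19% of the exon bases of Bhlhe41. Gm43909 has no row in the count files, and whether counting used the strand is not stated, so reads from it cannot be told apart from those of Bhlhe41.

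The promoter table of RefSeq (GRCm38.p6), which gives 250 bases before to 50 after a gene start, held 8 of the 10 genes. Bhlhe40 and Per2 were not matched. The E-box letters CACGTG, searched on both strands, were in the windows of Bhlhe41, Cry1 and Per1 and in 7.15% of all 32851 promoters. The related letters CACGTT were in those of Cry1, Cry2 and Nr1d1 and in 4.68% of all, and no match of one overlaps a match of the other. One or the other was in 5 of the 8 matched genes and in 11.4% of all promoters. These 5 are Bhlhe41, Cry1, Per1 and Nr1d1, which rose, and Cry2, which did not pass, while Dbp, which rose, and Per3 and Nr1d2, which did not pass, held neither. The calls of Per1 and Nr1d1 depended on single libraries. The share of all is over single promoters, while Per1 counted with a match in either of its 2 promoters. The stretches around the matches in all 5 are shown because they are the letters that the activators of the loop are known to bind. A match describes the sequence only. The Per and Cry genes are known E-box targets, so a share above that of all promoters is no independent result. In the window of Bhlhe41 the E-box begins at position -153 from the RefSeq start, which lies 138 bases downstream of the GENCODE gene start of the gene, so the match lies just upstream of the GENCODE gene. Positions of matches count from RefSeq starts throughout. The sequence is shown 5′ to 3′ along the gene, with the match in capitals, from chr6:145865559-145865613 (minus strand):
Bhlhe41: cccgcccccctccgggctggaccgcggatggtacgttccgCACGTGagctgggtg

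Bhlhe40 (ENSMUSG00000030103, chr6:108660629-108666925, plus strand) encodes DEC1, the close relative of DEC2. It had 222, 222 and 222 CPM in the sgcontrol libraries and 166, 186 and 181 CPM in the sgkiaa1522 libraries. All 3 sgkiaa1522 libraries were below all 3 controls, which differed from each other by less than those of any other clock gene relative to their mean. Its level fell to 0.801 of the control level, a log2 fold change of -0.32 (95% interval -0.47 to -0.17, SE 0.0625, adjusted p = 0.0041 by edgeR). It passed in 6 of 6 fits that left out 1 library, at -0.35 to -0.27. An antisense gene, 0610040F04Rik, shares 118 exon bases with Bhlhe40 (2.51%) and had between 0 and 0.591 CPM.

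The relatives moved in opposite directions from very unequal levels. Per length of transcript, in TPM (transcripts scaled to a common sum over genes), Bhlhe41 went from 0.789 ± 0.156 (SD, n = 3) to 15.8 ± 1.58 and Bhlhe40 from 122 ± 2.76 to 104 ± 6.25. The share of Bhlhe41 in the summed TPM of the pair was 0.697%, 0.504% and 0.73% in sgcontrol and 13.4%, 12.1% and 14.1% in sgkiaa1522. The groups did not overlap, and Bhlhe40 stayed the more abundant of the pair in all 6 libraries. The summed TPM of the pair was 122 ± 2.84 in sgcontrol and 120 ± 7.17 in sgkiaa1522, with overlapping libraries. Computed with the mean transcript length in place of the exon union, it was 183 ± 3.74 and 171 ± 10.2 without overlap, so whether the sum differs depends on the length used.

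The Cry genes encode cryptochromes, the main repressors of CLOCK and BMAL1. Cry1 (ENSMUSG00000020038, chr10:85131700-85185064, minus strand) had 18.4, 19.3 and 18.0 CPM in the sgcontrol libraries and 36.6, 36.8 and 38.6 CPM in the sgkiaa1522 libraries. Within each group the libraries lay close together, and the groups were far apart. Cry1 rose 2.01-fold (95% interval 1.76 to 2.29), a log2 fold change of 1.00 (SE 0.0805, adjusted p = 9.9e-05 by edgeR). The estimate lies on the threshold of 1, so whether Cry1 passes the fold rule turned on the scaling and the libraries, at 0.98 to 1.03 with each left out, while its adjusted p passed in every such fit. The 484 tested genes on chromosome 10 had a median log2 fold change of -0.19, and Cry1 stood at 1.20 relative to it.

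Cry2 (ENSMUSG00000068742, chr2:92403646-92434043, minus strand) had 14.2, 14.5 and 14.7 CPM in sgcontrol and 19.8, 14.3 and 14.8 CPM in sgkiaa1522. Library 1 of sgkiaa1522 was high, library 2 lay among the controls and library 3 lay just above the highest of them. Its log2 fold change was 0.16 (95% interval -0.16 to 0.49, adjusted p = 0.35 by edgeR), and 0.0082 without sgkiaa1522 1. The median of chromosome 2 was 0.14, and Cry2 stood 0.02 above it. D930015M05Rik, on the opposite strand over 295 exon bases of Cry2 (4.67%), was listed at 0 in all 6 libraries. The window of Cry1 held both CACGTT, read as AACGTG along the gene from position -79, and CACGTG from position -60 of a RefSeq start 10 bases downstream of the GENCODE one. Its sequence is from chr10:85185069-85185173 (minus strand), with both matches in capitals:
Cry1: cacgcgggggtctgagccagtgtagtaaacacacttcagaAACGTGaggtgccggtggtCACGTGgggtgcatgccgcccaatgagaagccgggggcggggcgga
Cry2 held CACGTT, read as AACGTG along the gene, from position -166, and its stretch is from chr2:92434190-92434275 (minus strand), with the match in capitals:
Cry2: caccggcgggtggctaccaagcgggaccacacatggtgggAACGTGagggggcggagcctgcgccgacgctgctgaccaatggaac

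Per length, the cryptochromes together went from 20.2 ± 0.512 to 37.8 ± 1.55 TPM, and the share of Cry1 went from 71.1%, 71.6% and 69.8% in sgcontrol to 77.8%, 82.9% and 83.2% in sgkiaa1522. The log2 ratio of Cry2 to Cry1 CPM was -0.36 ± 0.0669 in sgcontrol and -1.20 ± 0.278 in sgkiaa1522, a difference of -0.85. All sgkiaa1522 values were below all sgcontrol values (exact two-sided permutation p = 0.1, adjusted p = 0.15 over 6 ratios). With 3 libraries against 3, an exact p cannot go below 0.1, so none of the ratios could pass 0.05.

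**Figure D2:**
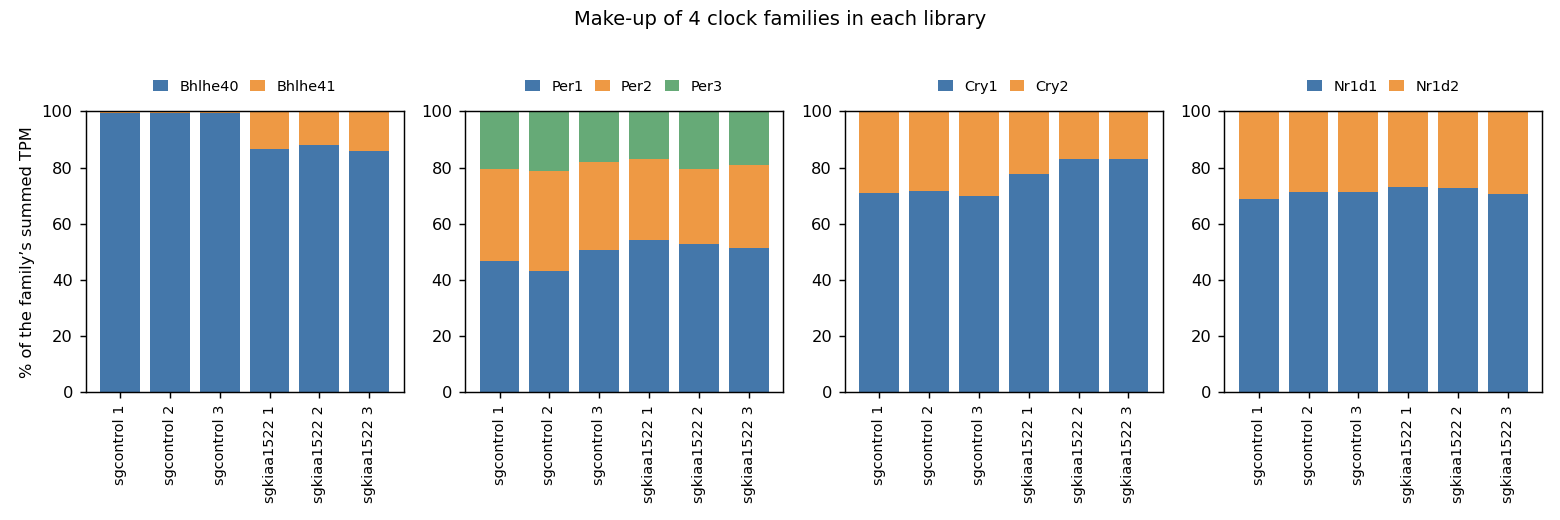
Share (y axis, % of the summed TPM of the family) of each gene in the 4 families BHLHE, PER, CRY and NR1D, with 1 stacked bar for each of the 6 libraries and the genes named by colour above each panel. The share of Bhlhe41 rises from under 1% to between 12.1% and 14.1%, that of Cry1 from between 69.8% and 71.6% to between 77.8% and 83.2%, and the bars of the NR1D family overlap between groups.

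The plot of family make-up puts the balance of relatives side by side, on a scale that does not depend on library scaling but does depend on the length given to each gene. The BHLHE and CRY panels separate the groups by eye. In the PER panel the shift is smaller, and in the NR1D panel Nr1d1 held 70.5% ± 1.5 in sgcontrol and 72.2% ± 1.3 in sgkiaa1522. With the mean transcript length, Nr1d1 held 60.1% ± 1.72 and 62.1% ± 1.52 of its family, and Per1 held 40.9% ± 3.71 and 46.6% ± 1.43.

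The Per genes encode the PERIOD proteins, which bind the cryptochromes, and Per1 is also induced directly by glucocorticoids and cAMP. Per1 (ENSMUSG00000020893, chr11:69095217-69109960, plus strand) had 63.7, 49.2 and 54.7 CPM in sgcontrol and 73.2, 74.0 and 68.3 CPM in sgkiaa1522. The highest control, sgcontrol 1, came within a few CPM of the lowest sgkiaa1522 library without reaching it. Per1 rose by a log2 fold change of 0.36 (95% interval 0.12 to 0.61, SE 0.104, adjusted p = 0.021 by edgeR). Without sgcontrol 1 this was 0.46 (adjusted p = 0.0029), and with each library left out it ranged from 0.28 to 0.46. It passed in 2 of 6 fits that left out 1 library, and lost the call without sgcontrol 2 (adjusted p = 0.074), sgcontrol 3 (0.056), sgkiaa1522 1 (0.057) or sgkiaa1522 2 (0.07). An E-box lies in the first of 2 RefSeq promoters of Per1, at position -166 from that start, inside the GENCODE gene but outside its exons. The stretch is from chr11:69098743-69098828 (plus strand), with the E-box in capitals:
Per1: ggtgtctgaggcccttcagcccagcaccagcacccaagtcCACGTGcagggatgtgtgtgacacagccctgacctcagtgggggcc

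Per2 (ENSMUSG00000055866, chr1:91415982-91459324, minus strand) had 46.4, 42.4 and 35.4 CPM in sgcontrol and 40.4, 38.9 and 40.6 CPM in sgkiaa1522. The sgkiaa1522 libraries all lay inside the range of the controls. Its log2 fold change was -0.0504 (95% interval -0.30 to 0.20, adjusted p = 0.72 by edgeR), and its sign turned without sgcontrol 1 (0.032). Per3 (ENSMUSG00000028957, chr4:151003652-151044665, minus strand) had 47.7, 41.4 and 32.8 CPM in sgcontrol and 39.4, 49.0 and 43.5 CPM in sgkiaa1522. These groups also overlapped, with a log2 fold change of 0.11 (95% interval -0.23 to 0.46, adjusted p = 0.54), and its sign turned without sgcontrol 3 (-0.021). The median of chromosome 4 was 0.08, and Per3 stood 0.04 above it, while Per2 stood 0.16 above the median of chromosome 1, which was -0.21. These intervals hold log2 changes as large as -0.30 for Per2 and 0.46 for Per3. The D-box letters TTATGTAA, found in 0.938% of all promoters, were present in the window of Per3 at positions -205 and -158.

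Within the family, Per1 held 46.7%, 43.1% and 50.6% of the summed PER TPM in sgcontrol and 54.2%, 52.8% and 51.4% in sgkiaa1522. The share of Per2 was 33.3% ± 2.15 against 28.3% ± 1.41, without overlap. The share of Per3 was 19.9% ± 1.80 against 18.9% ± 1.72, with overlap. The log2 ratio of Per2 to Per1 CPM went from -0.43 ± 0.207 to -0.84 ± 0.0892 without overlap (exact two-sided permutation p = 0.1, adjusted p = 0.15 over 6 ratios), and that of Per3 to Per1 from -0.47 ± 0.247 to -0.71 ± 0.158 with overlap (exact p = 0.3). The difference between groups in the ratio of Per3 to Per1 was -0.25. It was -0.14 without sgcontrol 2 and -0.38 without sgcontrol 3. The summed PER TPM was 54.8 ± 8.07 in sgcontrol and 66.4 ± 0.968 in sgkiaa1522. It did not overlap with exon lengths and did with mean transcript lengths, at 53.2 ± 7.85 and 61.4 ± 1.43.

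**Figure D3:**
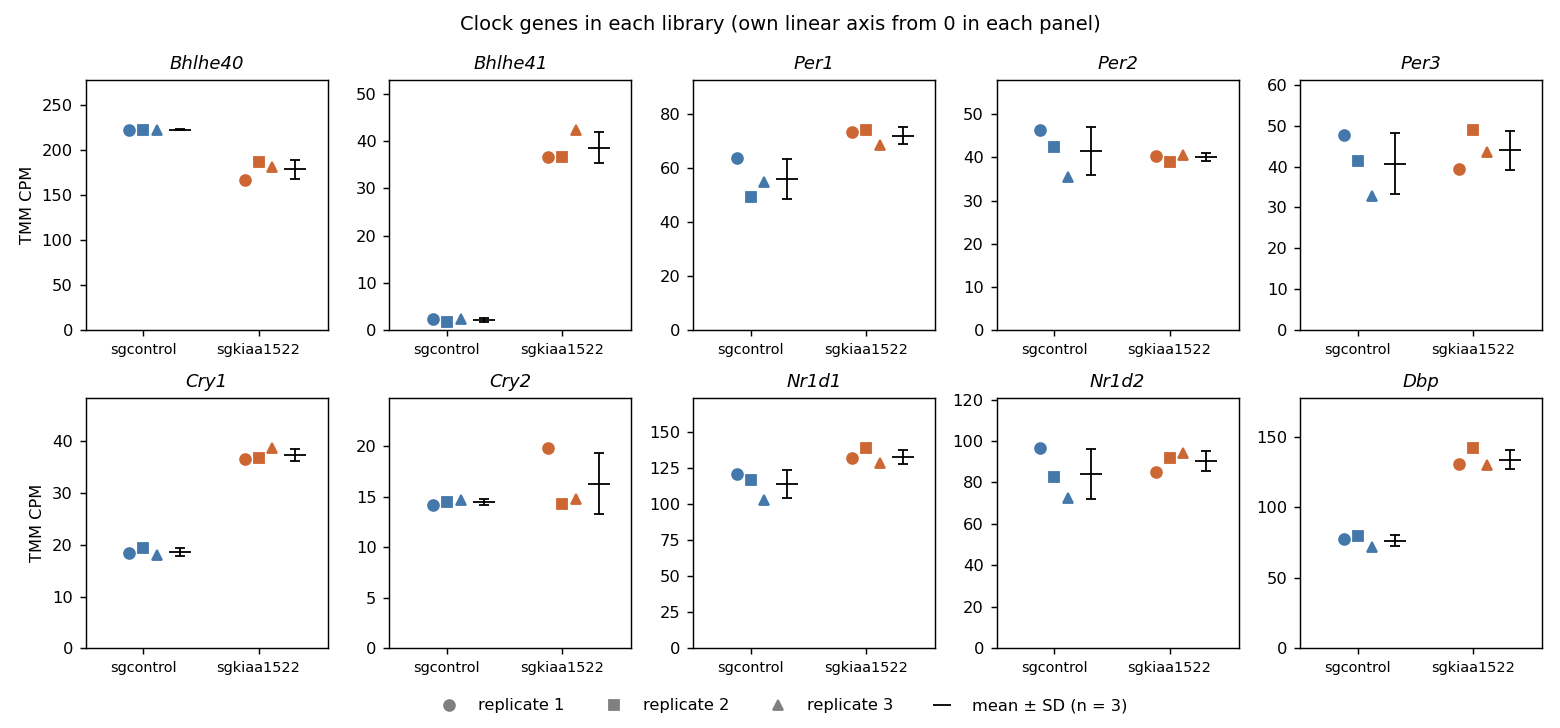
TMM-normalized CPM (y axis, linear from 0, 1 scale for each gene) of the 10 clock genes in each library, with marker shapes for replicates 1, 2 and 3 and black bars for the mean ± SD of the 3 libraries of a group. The groups are apart for Bhlhe40, Bhlhe41, Per1, Cry1, Nr1d1 and Dbp and overlap for Per2, Per3, Cry2 and Nr1d2.

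In the plot of CPM by library, sgcontrol 1 was the highest of the controls for Per1, Per2, Per3, Nr1d1 and Nr1d2. For these same genes the sgkiaa1522 libraries lay within a narrower range than the controls. The reverse held for Bhlhe40, Bhlhe41, Cry1, Cry2 and Dbp.

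The Nr1d genes encode REV-ERB alpha and REV-ERB beta, heme-binding repressors of Arntl. Nr1d1 (ENSMUSG00000020889, chr11:98767932-98775333, minus strand) had 121, 117 and 103 CPM in sgcontrol and 132, 139 and 129 CPM in sgkiaa1522. Each sgkiaa1522 library was above each control, by a small margin. Nr1d1 rose by a log2 fold change of 0.23 (95% interval 0.05 to 0.41, SE 0.0772, adjusted p = 0.036 by edgeR). This call depended on single libraries, while the log2 fold change ranged from 0.16 to 0.27 with each library left out. With the replicate number as a block the adjusted p was 0.069, and of 6 fits that left out 1 library it passed without sgcontrol 1 (0.27, adjusted p = 0.018) and not without sgcontrol 2 (0.066), sgcontrol 3 (0.095), sgkiaa1522 1 (0.074), sgkiaa1522 2 (0.12) or sgkiaa1522 3 (0.071). Exons of Nr1d1 and Thra, which encodes a thyroid hormone receptor, overlap on opposite strands over 263 bases, 8.55% of the exon bases of Nr1d1. Thra had 71.6 to 80.5 CPM in sgcontrol and 73.3 to 84.9 CPM in sgkiaa1522, a log2 fold change of 0.0382 (adjusted p = 0.72). The window of Nr1d1 held CACGTT, read as AACGTG along the gene, at position -28. It is shown from chr11:98775378-98775445 (minus strand), with the match in capitals:
Nr1d1: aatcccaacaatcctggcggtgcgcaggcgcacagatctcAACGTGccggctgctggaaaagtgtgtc

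Nr1d2 (ENSMUSG00000021775, chr14:18204054-18239127, minus strand) had 96.5, 82.6 and 72.7 CPM in sgcontrol and 85.1, 91.8 and 94.2 CPM in sgkiaa1522. The controls alone spanned the whole range of the gene. Its log2 fold change was 0.11 (95% interval -0.14 to 0.36, adjusted p = 0.43 by edgeR), and moved between 0.0093 without sgcontrol 3 (adjusted p = 0.94) and 0.21 without sgcontrol 1 (adjusted p = 0.062). Chromosome 14 stood lower as a whole in sgkiaa1522, with a median log2 fold change of -0.38 over 343 tested genes, and Nr1d2 was 0.49 above that median. The log2 ratio of Nr1d2 to Nr1d1 CPM was -0.44 ± 0.103 and -0.56 ± 0.0928, with overlap (exact two-sided permutation p = 0.3). The difference was -0.12, and -0.062 without sgcontrol 1. The summed TPM of the receptors was 135 ± 15.8 in sgcontrol and 165 ± 3.98 in sgkiaa1522, without overlap.

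Dbp (ENSMUSG00000059824, chr7:45705088-45710203, plus strand) is a direct target of CLOCK and BMAL1 and a common marker of clock output. It had 77.4, 79.7 and 72.2 CPM in sgcontrol and 131, 142 and 130 CPM in sgkiaa1522. The lowest sgkiaa1522 library was far above the highest control. Dbp rose 1.76-fold (95% interval 1.57 to 1.97), a log2 fold change of 0.81 (SE 0.0699, adjusted p = 1.2e-04 by edgeR), and stayed between 0.77 and 0.84 when single libraries were left out. Its estimate was under 1, so it missed the fold rule. The log2 ratio of Dbp to Arntl CPM went from 1.32 ± 0.0967 to 2.20 ± 0.0883, without overlap (exact two-sided permutation p = 0.1, the smallest possible). Sphk2, a sphingosine kinase gene on the opposite strand, shares 539 exon bases with Dbp, 18% of its exon bases. Sphk2 had 25.6, 27.1 and 13.7 CPM in sgcontrol and 34.4, 34.4 and 34.1 CPM in sgkiaa1522 (log2 fold change 0.63, adjusted p = 0.05 by edgeR), so it was also higher, and the part of shared reads in either value was not tested. Leaving out sgkiaa1522 1, 2 or 3 kept the fold change of Sphk2 (0.63, 0.63 and 0.64) but lost the call (adjusted p = 0.1, 0.11 and 0.1 by edgeR), and without sgcontrol 3 it was 0.38 (adjusted p = 0.014). None of the letters searched was in the RefSeq windows of Dbp or Nr1d2.

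**Figure D4:**
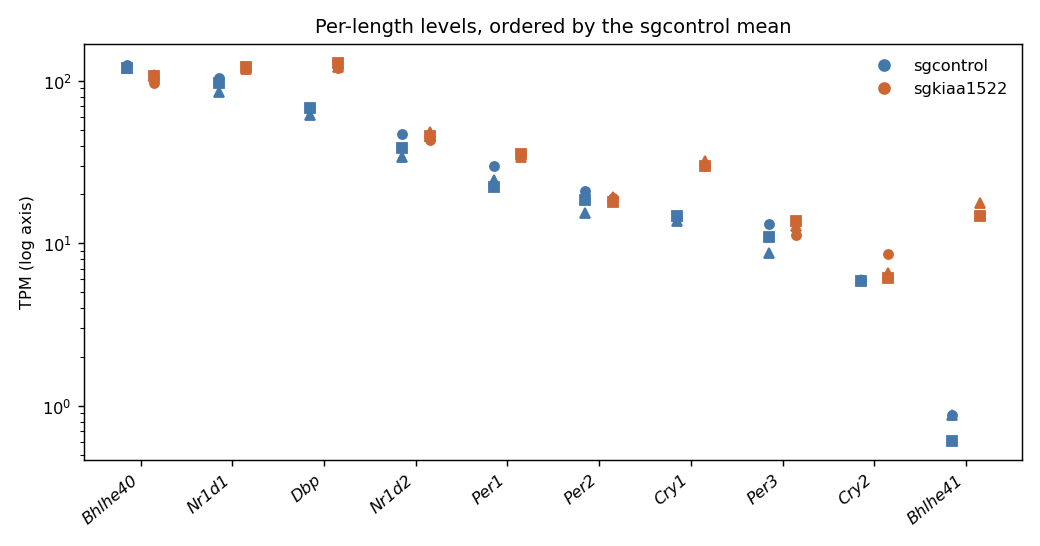
TPM (y axis, log scale) of the 10 clock genes in each of the 3 sgcontrol (blue) and 3 sgkiaa1522 (orange) libraries, computed with exon lengths and ordered by the sgcontrol mean, with circles, squares and triangles for replicates 1, 2 and 3. Bhlhe41 is the lowest gene in sgcontrol, at 0.789 TPM on average, and lies among the PER genes in sgkiaa1522, at 15.8 TPM.

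Per length, the order of levels in sgcontrol was Bhlhe40, Nr1d1, Dbp, Nr1d2, Per1, Per2, Cry1, Per3, Cry2 and Bhlhe41, and the ranges of neighbours in this order did not overlap. Mean levels ran from 122 ± 2.76 TPM for Bhlhe40 and 95.2 ± 9.48 TPM for Nr1d1 to 5.90 ± 0.061 TPM for Cry2 and 0.789 ± 0.156 TPM for Bhlhe41. The margins were narrow between Per1 (lowest library 22.2 TPM) and Per2 (highest 20.9 TPM), and between Per2, Cry1 and Per3. In sgkiaa1522 the order was Dbp (123 ± 4.91 TPM), Nr1d1 (119 ± 2.75 TPM), Bhlhe40, Nr1d2, Per1, Cry1, Per2, Bhlhe41, Per3 and Cry2. Dbp and Nr1d1 overlapped there, and the ranges of other neighbours did not. Cry1 passed above Per2, at 30.7 ± 1.37 against 18.8 ± 0.69 TPM, and Bhlhe41 above Per3 and Cry2. The order rests on the length given to a gene. With the mean transcript length, 3 genes in sgcontrol and 7 in sgkiaa1522 had another rank, and Bhlhe40 was then first in both groups. Cry1 then stood above Per2 already in sgcontrol, at 24.3 against 18.4 TPM on average, so this crossing depended on the length.

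With all 6 libraries, the activators of the loop showed no call in either direction, and 3 of the 4 were tested. Arntl, which encodes BMAL1, had 30.4, 30.0 and 31.0 CPM in sgcontrol and 28.3, 29.2 and 30.1 CPM in sgkiaa1522, a log2 fold change of -0.0601 (95% interval -0.24 to 0.12, adjusted p = 0.53 by edgeR). Arntl2, its relative, had a log2 fold change of -0.14 (-0.39 to 0.11, adjusted p = 0.31). Clock had 78.3, 43.3 and 42.7 CPM in sgcontrol and 61.0, 69.2 and 97.7 CPM in sgkiaa1522. Its groups overlapped through sgcontrol 1, and the interval of its log2 fold change, 0.47, was wide (-0.16 to 1.10, adjusted p = 0.18 by edgeR). Without sgcontrol 1 the groups did not overlap and Clock was called higher, at 0.82 (0.34 to 1.29, adjusted p = 0.013), so its call depended on that library. Without it, Arntl was at -0.068 (adjusted p = 0.48) and Arntl2 at -0.04 (adjusted p = 0.7). Npas2, the paralog of Clock, was listed at 0 in all 6 libraries. Of the ROR receptors, which activate Arntl at the sites where REV-ERB represses it, Rora and Rorb had between 0 and 0.082 CPM. In the RefSeq windows, the REV-ERB and ROR letters TAGGTCA, present in 2.61% of all promoters, were found in the second promoter of Arntl, at position 31 from its start. TGGGTCA (3.98% of all), TTACGTAA (0.119%) and the CRE letters TGACGTCA (1.79%) were in none of the windows of the 8 matched clock genes or Arntl.

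The other D-box factors rose with Dbp where they passed the filter on low counts. Tef, a PAR bZIP factor like Dbp, had 129, 107 and 99.2 CPM in sgcontrol and 143, 133 and 140 CPM in sgkiaa1522, a log2 fold change of 0.31 (SE 0.0995, adjusted p = 0.032 by edgeR). Nfil3, which represses at the same sites, had 39.1, 46.4 and 49.0 CPM in sgcontrol and 64.5, 57.4 and 54.9 CPM in sgkiaa1522 (0.39, SE 0.11, adjusted p = 0.019). Neither gene overlapped between groups. The call of Tef passed without sgcontrol 1 (0.42, adjusted p = 0.0015 by edgeR) and was lost without any other library (adjusted p = 0.059 to 0.097). That of Nfil3 was lost without sgkiaa1522 1 (adjusted p = 0.061). Hlf, the remaining PAR bZIP gene, had at most 0.082 CPM in any library.

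**Figure D5:**
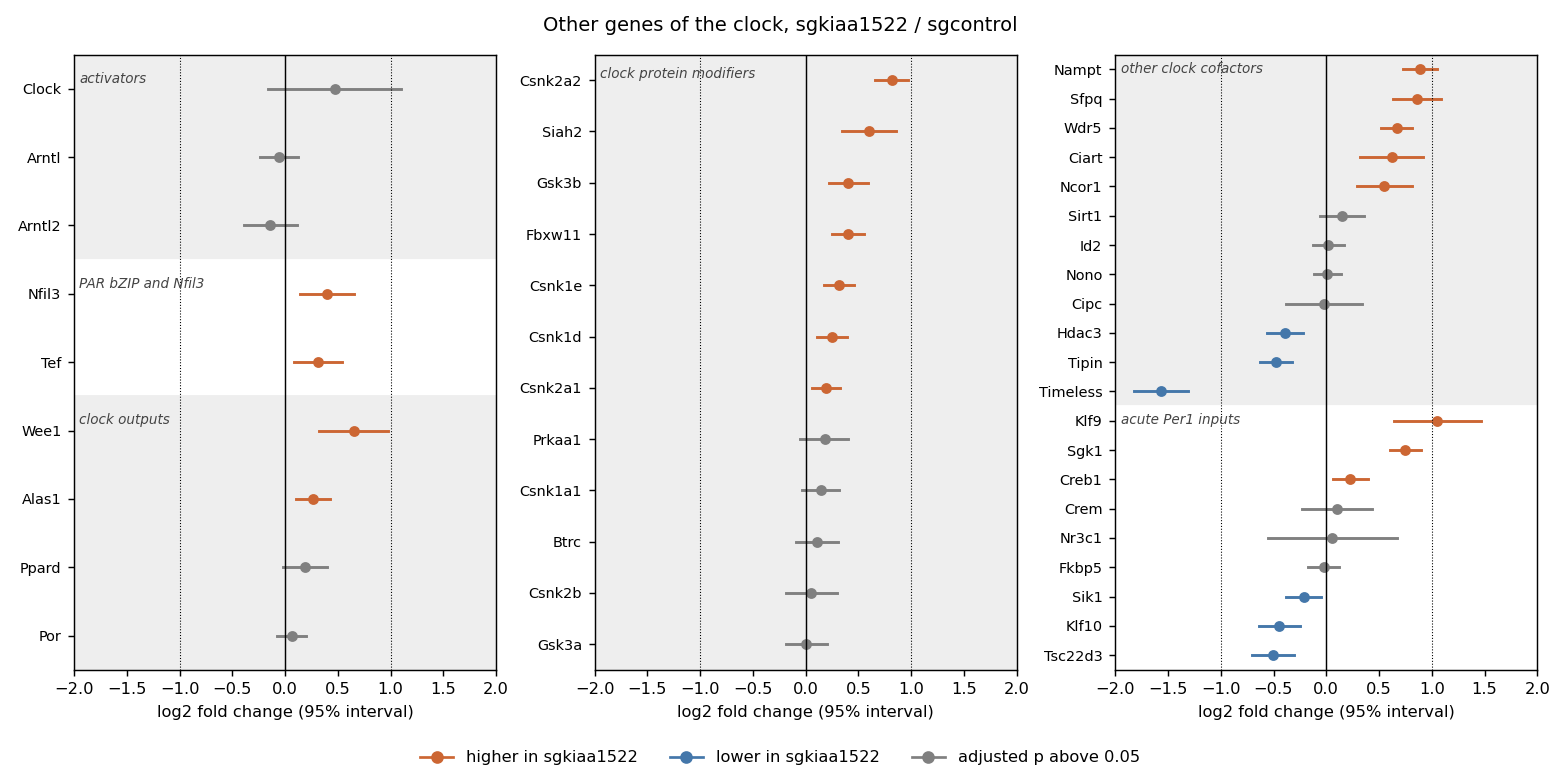
Log2 fold change (x axis, sgkiaa1522/sgcontrol) with 95% intervals of edgeR for the 42 tested genes of 6 other clock lists, n = 3 libraries a group, coloured by whether the adjusted p was at most 0.05 and in which direction, with dotted lines at 1 in either direction. With all 6 libraries the activators cross 0, no clock protein modifier is called lower, and Timeless, at -1.57, is the lowest gene shown.

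Of the 50 other clock genes listed, 42 were tested, and 19 were higher, 6 lower and 17 not past the adjusted p, where 26.3% of all tested genes were called in each direction. Their median log2 fold change was 0.18, against -0.0067 over all tested genes. Without sgcontrol 1, 22 were higher, 6 lower and 14 not passed, beside 29.6% higher and 29.5% lower over all tested genes. The counts of the single lists stand beside the same shares, and lists this small are described without a test. The lists too were chosen with earlier results of these data known, so their counts and medians are no independent result. Enzymes that modify or degrade clock proteins, such as casein kinases and ubiquitin ligase subunits, counted 7 higher, 0 lower and 5 not passed of 12 tested, with a median of 0.22, and 9, 0 and 3 without sgcontrol 1. Csnk2a2, a catalytic subunit of casein kinase 2, changed most among them, from 57.6 to 101 CPM on average (log2 fold change 0.82, SE 0.066, adjusted p = 1.0e-04 by edgeR). Gsk3a, a glycogen synthase kinase gene, had the lowest value of the list, 0.00453 (adjusted p = 0.97 by edgeR). Of the casein kinase 1 genes, whose products phosphorylate PERIOD proteins, Csnk1d and Csnk1e were higher by 0.25 and 0.31 (adjusted p = 0.01 and 0.0043 by edgeR). Csnk1a1 did not pass and its groups overlapped (0.15, adjusted p = 0.15), and it moved between 0.091 without sgkiaa1522 3 (adjusted p = 0.42) and 0.20 without sgcontrol 1 (adjusted p = 0.038). The call of Csnk1d was lost without sgkiaa1522 3, where its adjusted p was just over the threshold.

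The other cofactors of the loop went both ways, with 5 higher, 3 lower and 4 not passed of 12, and a median log2 fold change of 0.08 (6, 3 and 3 without sgcontrol 1). Timeless had 30.6, 34.7 and 32.2 CPM in sgcontrol and 9.92, 12.1 and 10.7 CPM in sgkiaa1522. It fell to 0.337 of the control level, a log2 fold change of -1.57 (SE 0.109, adjusted p = 6.2e-05 by edgeR). It was the single gene of the other clock lists called lower under the fold rule. In mammals the Timeless protein is known mainly for its part at the replication fork with Tipin, and Tipin was lower too (66.8 to 48.0 CPM, log2 fold change -0.48, adjusted p = 0.00095). Nampt, the rate-limiting enzyme of NAD salvage and a target of CLOCK and BMAL1, had the largest rise of this list, from 100 CPM on average in sgcontrol to 186 in sgkiaa1522 (0.89, adjusted p = 9.1e-05 by edgeR).

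Genes that share the acute inputs of Per1, from glucocorticoid and cAMP signals, were 3 higher, 3 lower and 3 not passed of 9, with a median of 0.06 (2, 3 and 4 without sgcontrol 1). Klf9, a glucocorticoid-induced Kruppel-like factor that also cycles in many tissues, had 57.7, 44.1 and 34.9 CPM in sgcontrol and 83.3, 99.4 and 101 CPM in sgkiaa1522 (log2 fold change 1.05, 95% interval 0.64 to 1.47, adjusted p = 0.0021 by edgeR). Tsc22d3, the glucocorticoid-induced leucine zipper gene, was lower, at 62.4 against 44.1 CPM (-0.50, adjusted p = 0.002). Of 4 tested output genes, 2 were higher and 0 lower, with a median of 0.23. Wee1, the cell cycle kinase gene with E-boxes in its promoter, had 14.3 CPM on average in sgcontrol and 22.4 in sgkiaa1522 (0.65, adjusted p = 0.0062 by edgeR), and Por, which encodes cytochrome P450 reductase, had the lowest value of the outputs, 0.0639 (adjusted p = 0.4).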

How the data were processed

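RNA of 6 libraries of 889 cells was sequenced (3 sgcontrol, 3 sgkiaa1522). The authors trimmed reads and removed rRNA reads with Seqtk, mapped to GRCm38 and deposited counts of uniquely mapped fragments per Ensembl gene, whole numbers without normalization. The submitters' processing notes name HISAT2 2.0.4 and StringTie 1.3.0. The annotation release and the strand setting are not given in the sources used here. Gene positions and lengths came from GENCODE M21, promoters from RefSeq (GRCm38.p6).

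Following the study's filter, the 10046 genes whose summed count over the 6 libraries exceeded 500 were tested with edgeR 4.0.16 (R 4.3.3, limma 3.58.1), TMM factors and the quasi-likelihood test, without covariates, with Benjamini-Hochberg adjustment over the tested genes. They held 99.5% to 99.6% of a library's counts, TMM factors were 0.99 to 1.01, and the biological coefficient of variation was 0.127. Calls used an adjusted p of at most 0.05, alone or with the study's fold rule (log2 fold change at or past 1 in either direction). CPM and TPM were computed here from the counts, TPM with the exon union as length. Intervals are 95%, and a floor of 3 counts covers counting error only. On simulated counts of 10046 genes the test recovered 37 of 66 genes changed by 0.6 on the log2 scale, 63 of 67 by 1 and 67 of 67 by 2, with 8 false calls.

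The members and lists were chosen with earlier results of these data known. The text names the 10 members, kiaa1522, every gene of the activators, ROR receptors and PAR bZIP and Nfil3 lists, genes of the other clock lists called under the fold rule or with the largest rise or fall of a list, genes overlapping a member and defining markers of cell types. Of these lists, 2 genes are not reported here and are left out of the list counts. Csnk1a1, Csnk1d, Csnk1e and Tipin are outside this rule and were chosen after their values were seen. Alternatives were RLE size factors, library size alone, DESeq2 1.42.0, edgeR's exact test, 2 other filters, the replicate number as a block, each library left out in turn, the median of each chromosome removed, and the mean transcript length. Leaving out libraries for the other clock genes, counting the lists without sgcontrol 1, and the rule of the study's volcano plot were added after seeing the data.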

Additional observations from a re-analysis of the deposited data

How the results depend on the processing

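Leaving out 1 library at a time, the clock genes called higher ranged from 3 to 5 on the adjusted p, with Bhlhe41, Cry1 and Dbp in each set (3 without sgcontrol 2, sgcontrol 3, sgkiaa1522 1 or sgkiaa1522 2), and from 1 to 2 with the fold rule, where Cry1 was lost without sgcontrol 1, sgcontrol 3 or sgkiaa1522 3. Cry1 was also lost, leaving 1, with library size alone (0.99). Over all genes, calls with the fold rule were 436 lower and 275 higher, and 812 and 607 with edgeR's expression filter (12141 genes) or 941 and 767 with a filter of at least 1 count (18499 genes), which test more genes. With each library left out, Per2 ranged from -0.16 to 0.032 and Per3 from -0.021 to 0.24. Per2 changed sign without sgcontrol 1 (0.032, adjusted p = 0.79 from edgeR) and with its chromosome median removed (0.16), and Per3 without sgcontrol 3 (-0.021, adjusted p = 0.9). Among other named genes, values near 0 changed sign for Gsk3a without sgcontrol 1 or sgkiaa1522 2 (range -0.079 to 0.044) and for Thra without sgcontrol 3 or sgkiaa1522 2 (-0.015 and -0.017, range -0.017 to 0.09), and Clock ranged from 0.25 to 0.82. With the mean transcript length, 3 and 7 clock genes changed rank by TPM in sgcontrol and sgkiaa1522. The fit with the replicate block called 4 clock genes higher. Nr1d1 lost its call (0.24, adjusted p = 0.069) and no other clock gene did. The labels do not say what a replicate number marks, and same-numbered libraries had correlations of deviations of -0.214, -0.0508 and -0.165, so they share a number and are not treated as pairs. The self-test recovered 37 of 66 genes at a log2 change of 0.6. Far fewer genes were changed in it than were called in the data, so passing needed a lower unadjusted p there. Its recovery therefore does not give the power in these data. The changes estimated for Per1 and Nr1d1 were smaller than any simulated, and how often such changes would be missed was not tested. The lowest clock gene had 1522 counts over the 6 libraries.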
